A study of Mus musculus with 73 samples.

Results

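The comparison described here set 2 mouse livers that kept a single functional Foxa2 allele against 4 livers that lost every Foxa1 and Foxa2 allele during development. The 6 libraries were chosen by their labelled genotype out of 73 samples in the series and 27 in its reduced representation bisulfite sequencing (RRBS) table. RRBS reads DNA methylation in CpG-rich restriction fragments, and the table gives 1 methylation level for each 100 bp tile of the mouse genome (mm9 build). Of 817277 tiles, 378704 had a level in all 6 libraries and make up the comparison.

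Per the labels, the single-allele livers carried FoxA1L/L;FoxA2L/+ (L being the allele that Cre removes), were depleted in development and were 8 weeks old (n = 2, samples 1 and 2). The developmental double nulls came from an age series with 1 library per age: 20 days, 8 weeks, 4 months or 6 months (n = 4). The labels of these RRBS libraries do not name the Cre driver, whereas those of the whole-genome bisulfite (WGBS) libraries of the same series name the Alfp Cre transgene for developmental deletion. Beside them stand 4 age series controls of the same ages, whose genotype the labels do not give, and 2 double heterozygotes (FoxA1L/+;FoxA2L/+, also depleted in development, 8 weeks old). DNA was isolated from hepatocytes, and no transcripts were measured in these samples, so neither the cell type nor the loss of the alleles could be checked by markers. Nothing in the labels says that samples of 1 genotype came from separate animals, so the tests measure only the spread between these samples.

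FoxA1 and FoxA2 are forkhead proteins that bind enhancers early in liver development and make the chromatin there accessible to other liver factors. Cytosine methylation in CpG dinucleotides is a stable mark copied at cell division, and enhancers in use usually lose it in the tissue that uses them. FoxA1 and FoxA2 recognise the same core motif and can stand in for each other at many liver sites.

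The deposited WGBS table lists 33302 FoxA binding sites of 400 bp. The authors' hyper-methylated list holds 8.12% of them, exactly the sites where the mean WGBS level of the developmental nulls exceeded that of the controls by more than 20 points (percentage points of methylation). Of the compared tiles, 107 lay wholly inside a listed site (listed tiles, in 76 separate regions), 3668 lay inside another FoxA site (other FoxA tiles, in 2090 regions), 33115 lay within 2000 bp of a site, and 341814 lay farther away (distant tiles). The list was chosen on null against control WGBS libraries, so a higher level of nulls over controls at listed tiles is not independent evidence of direction. The single-allele livers had no part in that choice, but the sites were chosen for a high level in the null genotype. The choice thus favours a higher level of nulls over any other group there, which is not independent evidence either. The same holds where tiles are grouped by the WGBS difference between nulls and controls. In the 7 control libraries of the other RRBS experiments the median listed tile had a level of 17.4%, the median other FoxA tile 1.31% and the median distant tile 81.6%. Per the labels, some of these controls were FoxA1L/L;FoxA2L;L;FoxA3-/- livers taken 7 or 13 days after GFP induction. The others were injected with AAV GFP and then partially hepatectomised, with no genotype given. No sequence or gene is given for the tiles, since no mm9 genome or annotation was used here.

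Livers with 1 Foxa2 allele had lower methylation at listed sites than each of the 4 double nulls. The mean over the 107 listed tiles was 32.1% and 32.8% in single-allele samples 1 and 2. It was 54.2% in the double null aged 20 days, 50.2% in the one aged 8 weeks, 42.2% in the 4-month null and 46.9% in the 6-month null. All 4 nulls therefore lay above both single-allele libraries, with a gap between the nearest pair that exceeded the difference between the single-allele samples. The null mean was 48.4% ± 5.07 (SD, n = 4) and the single-allele mean 32.5% ± 0.471 (SD, n = 2), a difference of 15.9 points with a two-sided exact permutation p = 0.133, the smallest this design allows. At the matched age of 8 weeks the 1 null of that age stood 17.7 points above the single-allele mean, with no replicate check.

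The experiments differed away from FoxA sites too, so listed tiles were set against distant tiles of the same library. Distant tiles averaged 62.2% to 63.1% in the nulls and 60.6% and 60.3% in the single-allele samples, 2.22 points lower. The gap was plain in unmethylated DNA. Over the 84506 distant tiles below 5% in the controls of the other experiments, the nulls averaged 3.01% to 3.64% and the age series controls 3.14% to 3.69%, against 1.44% and 1.23% in the single-allele samples and 1.34% and 1.20% in the double heterozygotes. The age series controls, which are not nulls, thus lay with the nulls, and the double heterozygotes lay with the single-allele samples.

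Subtracting each library's distant mean left the listed tiles at -14.3 points ± 5.10 (SD, n = 4) in the nulls and -28.0 points ± 0.679 (SD, n = 2) in the single-allele samples. By library, the relative level in the nulls, in order of age, was -8.04, -12.9, -20.1 and -16.2 points, against -28.5 and -27.5 with a single allele. The relative difference was 13.7 points (two-sided exact permutation p = 0.133, the smallest possible) and 15.1 points for the 8-week null. Because distant tiles are mostly highly methylated, the same was computed with distant tiles weighted to the listed tiles' levels in the other experiments' controls. Listed tiles then stood 16.2 points ± 4.11 (SD, n = 4) above matched distant tiles in the nulls and 3.24 points ± 0.700 (SD, n = 2) above them in the single-allele samples, a difference of 13.0 points (exact permutation p = 0.133) that was 14.0 points for the 8-week null.

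Averaged over all other FoxA tiles, the groups did not differ beyond the spread between libraries once distant tiles were subtracted. Of these tiles, 83.1% lay below 10% in the other experiments' controls, so the average mostly describes tiles of low level. Other FoxA tiles averaged 8.92% ± 1.34 (SD, n = 4) in the nulls and 6.69% ± 0.319 (SD, n = 2) with a single allele, 2.23 points apart. Relative to distant tiles the difference was 0.0122 points, with SDs of 1.61 points in the nulls and 0.111 points in the single-allele samples (exact permutation p = 0.8). Against level-matched distant tiles it was -0.0322 points (exact permutation p = 0.8). Tiles within 2000 bp of a site differed by 2.59 points, and by 0.366 points relative to distant tiles (exact permutation p = 0.933).

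**Figure D1:**
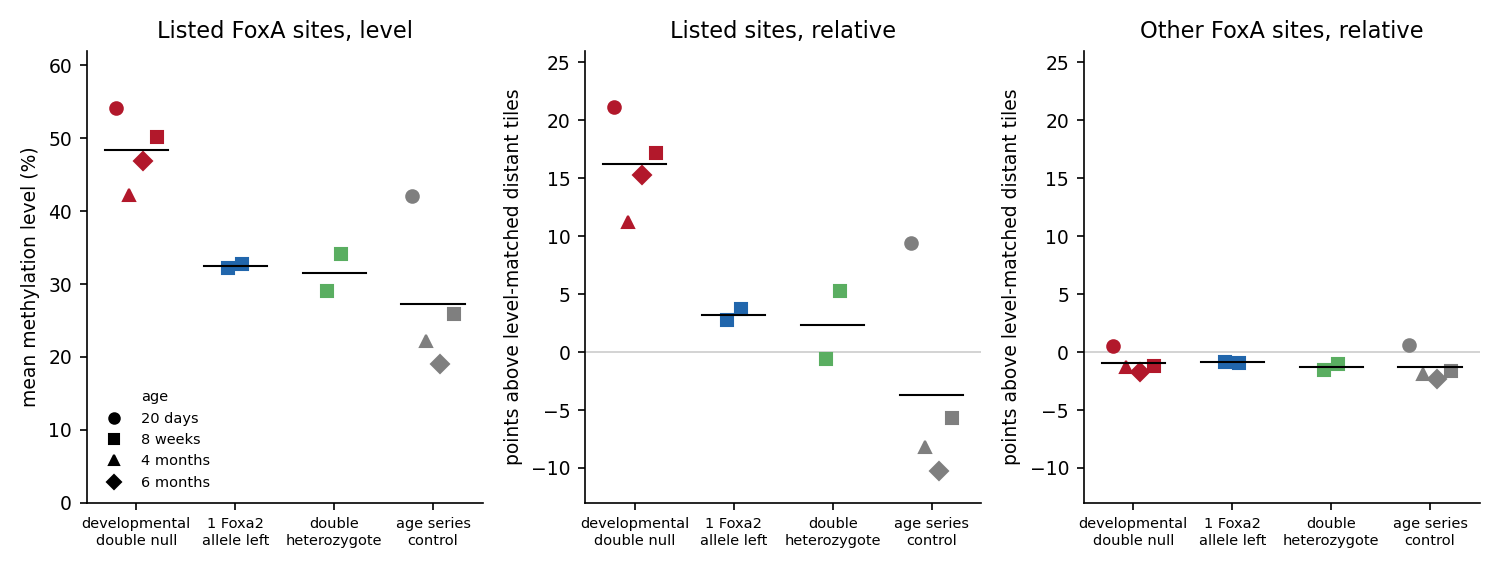
Mean of listed tiles per library (left, methylation level in percent), listed tiles less level-matched distant tiles (middle, points) and other FoxA tiles less level-matched distant tiles (right, points); each marker is 1 library, its shape gives the age and black lines are group means. In the left and middle plots the 4 double nulls lie above both single-allele samples, and in the right plot the single-allele samples, at -0.830 and -0.960 points, lie within the range of the nulls.

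Single-allele livers lay between the 8-week control and the 8-week null, nearer the control. Over the 101 listed tiles with a level in the 8-week control, the control averaged 25.9%, the single-allele samples 32.8% and the null 51.1%. The single-allele mean thus lay 27.5% of the way from control to null on the level scale, 36.1% relative to distant tiles and 39.2% relative to level-matched distant tiles. Tile by tile, the single-allele mean fell between the 8-week control and null at 59 of 101 tiles and below the control at 35. It was nearer the control than the null at 72 tiles. The control and the null are 1 library each, so these positions have no replicate error on either end. The double heterozygotes averaged 29.0% (105 tiles) and 34.1% (107 tiles) at listed tiles, on either side of the single-allele samples at 32.1% and 32.8%. An intermediate level at 8 weeks was thus not particular to the single-allele genotype.

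The control level at listed sites also differed between ages, with 1 control per age. In order of age, the controls of the age series averaged 42.1%, 25.9%, 22.2% and 19.0%. The 20-day control thus lay above both 8-week single-allele samples, and the 3 older controls lay below them. The 7 controls of the other experiments were Foxa3-null or partially hepatectomised, and 9 or 12 weeks old. They ranged from 22.8% to 30.7%, all below both single-allele samples. Relative to level-matched distant tiles they ranged from -4.03 to 2.00 points, against 2.74 and 3.73 points with a single allele. The matching used the levels of these same 7 controls, which ties their own values on that scale to the matched tiles. Their position below the single-allele samples on that scale is thus not independent evidence. Relative to all distant tiles, without matching, these controls ranged from -35.4 to -30.2 points, against -28.5 and -27.5 points with a single allele. The differences between single-allele samples and controls were not tested, as these libraries come from other experiments.

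Double heterozygotes, which keep 1 Foxa1 allele as well, were the nearest same-age comparison and did not separate from the single-allele livers. Over 123 listed tiles measured in all 4 libraries, the single-allele samples averaged 30.9% and 31.5% and the double heterozygotes 27.8% and 31.9%. The groups overlapped, and the means of 31.2% ± 0.421 (SD, n = 2) and 29.9% ± 2.85 (SD, n = 2) were 1.30 points apart (two-sided exact permutation p = 1, with 0.333 the smallest possible). Single tiles agreed within 10 points at 85 of 123 and differed by more than 20 points at 15. Across the 433351 tiles measured in these 4 libraries, limma's moderated test with Benjamini-Hochberg adjustment called 25 higher (0.00577%) and 21 lower (0.00485%) in the single-allele samples. None of the calls was a listed tile, of which 5 (4.07%) had an unadjusted p under 0.05, against 5.57% of all tiles. With 2 libraries a group, these values do not show that the genotypes act alike.

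At single tiles, the mean difference between nulls and single-allele samples was above 0 at 99 of 107 listed tiles, against 72.6% of all tiles, and its median was 15.2 points against 1.88 points over all tiles. At 50 listed tiles (46.7%) all 4 nulls exceeded both single-allele samples, which held for 23.5% of all tiles. The reverse held for 1 listed tile and for 2% of all tiles. A difference of at least 20 points was seen at 35 listed tiles (32.7%), against 1.12% of all tiles. The 8-week null alone exceeded both single-allele samples at 89 of 107 listed tiles, against 51.2% of all tiles. Among tiles at 10% to 60% in the other experiments' controls, all nulls exceeded both single-allele samples at 34 of 69 listed tiles, at 64 of 528 other FoxA tiles (12.1%) and at 4099 of 32381 distant tiles (12.7%).

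Many listed tiles had low methylation in the single-allele livers, which were sampled at 1 age only. In single-allele samples 1 and 2, 49 and 48 of the 107 listed tiles lay below 20%, against 21, 22, 29 and 25 in the nulls in order of age. No matching count over all tiles is given here. The median listed tile was at 22.6% and 25.0% with a single allele, and at 36.8% (4 months) to 58.3% (20 days) in the nulls. The single-allele samples agreed closely on average, by -0.666 points (sample 1 minus sample 2), but less so at single tiles: 67 of 107 agreed within 10 points and 17 differed by more than 20. Across the 107 tiles their levels correlated with r = 0.879, a description over tiles that share libraries. The 4 nulls spread over a median range of 23.1 points at a listed tile.

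Counted by region, which treats neighbouring tiles as one, 71 of the 76 regions had a mean difference above 0 and 26 had one of at least 20 points. In the 28 regions with 2 or more tiles (59 tiles), every tile was higher in the nulls in 23. No matching region count outside the list is given here. By tile, the difference was above 0 at 79.0% of other FoxA tiles and 72.6% of all tiles. It was at least 20 points at 1.20% and 1.12% of them. The 12 listed tiles covered by 2 or more overlapping FoxA sites differed by 20.5 points (37.2% in nulls, 16.7% with a single allele), and the 95 covered by 1 site differed by 15.3 points (49.8% and 34.5%). HNF6, a homeodomain factor of hepatocytes, had 1078 regions with a peak in all 3 control ChIP lists of the series, which overlapped 675 FoxA sites. None of the 107 listed tiles lay in such a site, and only 35 of the 3668 other FoxA tiles did. At so low a share, the absence does not set listed tiles apart. Those 35 tiles differed by 0.768 points, by -1.65 points less distant tiles of the same level, and by -0.0107 points for the 8-week null. At 1 of them (2.86%) all nulls exceeded both single-allele samples, against 28.2% of the other FoxA tiles without an HNF6 region and 23.5% of all tiles. These shares are not matched by level. Among other FoxA tiles the share was 36.6% below 5% in the other experiments' controls and 10.3% at 5% to 10%.

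Above a WGBS gain of 10 points, the difference in RRBS was larger in each bin of larger gain. Over all 3775 tiles inside FoxA sites, the 29 tiles whose site had lost more than 10 points in WGBS were 2.86 points higher in the 4 nulls and differed by -2.67 points for the 8-week null alone. Those whose site had a WGBS null minus control difference between -10 and 0 points differed by 1.49 points between nulls and single-allele samples (1833 tiles), and those between 0 and 10 points by 2.38 (1663 tiles). The difference was 10.0 points where WGBS had gained 10 to 20 points (140 tiles), 14.5 points at 20 to 30 (75 tiles) and 16.7 points at 30 to 40 (29 tiles). Less the mean of distant tiles of the same level, these 3 bins gave 7.24, 11.5 and 13.8 points. The 6 tiles with a larger gain were thinly spread, with 26.1 points at the 1 tile from 40 to 50 and 26.2 points at the 5 tiles above 50. The single-allele level rose less steeply across the same bins, from 25.2% at 10 to 20 points to 30.6% and 35.6%, while the nulls went from 35.2% to 45.0% and 52.4% and the 8-week control from 24.0% to 26.6% and 26.6%.

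**Figure D2:**
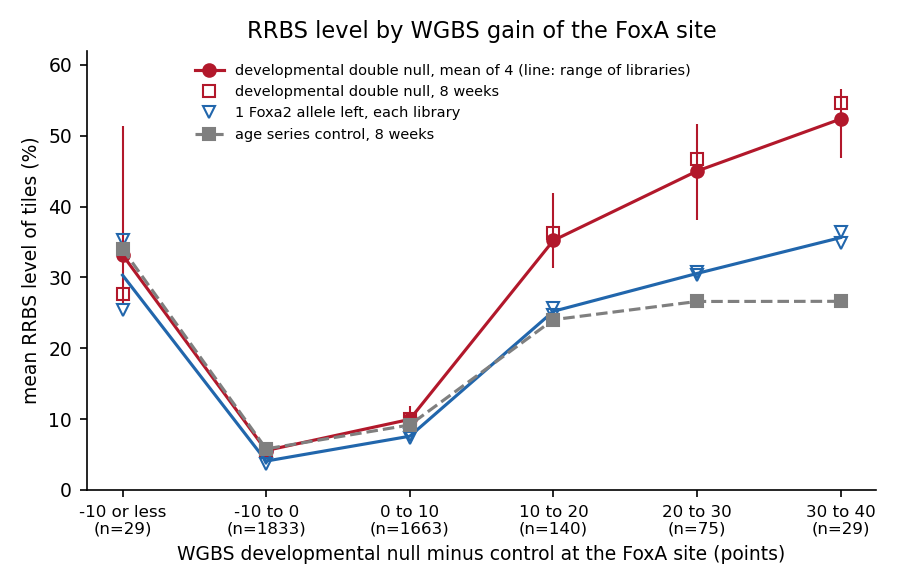
Mean RRBS level (percent) of tiles inside FoxA sites against the WGBS gain of the site (points), for the nulls, single-allele samples and 8-week control, in bins of 20 tiles or more. Above a gain of 10 points the nulls separate from the single-allele samples, reaching 52.4% against 35.6% in the 30 to 40 point bin, where the 8-week control is at 26.6%.

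No step appeared at the authors' threshold. Tiles just inside it, with a WGBS gain above 20 and up to 25 points, differed by 13.9 points (61 tiles), and those just outside, above 15 and up to 20 points, by 12.7 points (45 tiles). Across the 107 listed tiles alone, gain and RRBS difference correlated with r = 0.174 and Spearman's rho = 0.141, and across all 3775 tiles with r = 0.457 and rho = 0.221. These are descriptions across tiles that share libraries and, where they overlap, sites.

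Sites that WGBS controls held at low methylation showed the widest gap. Where the WGBS control level was under 20% (50 tiles), nulls averaged 35.5% and single-allele samples 16.8%, a difference of 18.7 points. It was 15.6 points at 20% to 40% (35 tiles, 49.3% and 33.6%) and 10.0 points at 40% or more (22 tiles, 76.2% and 66.2%). For the 8-week null alone the 3 differences were 17.7, 19.1 and 15.6 points, so the fall across these groups was not seen at matched age. Grouped by RRBS level in the other experiments' controls, the mean difference was 18.5 points below 5% (9 tiles), 13.8 at 5% to 10% (18 tiles), 19.9 at 10% to 20% (30 tiles), 21.8 at 20% to 30% (12 tiles) and 21.3 at 30% to 40% (10 tiles). It was 6.02 points at 40% to 50% (9 tiles) and 11.8 points at 50% to 60% (8 tiles). The 11 tiles above that, in 3 groups, gave 3.40 to 7.65 points. Distant tiles stayed between 1.34 and 3.73 points in every such group. Other FoxA tiles differed less than distant tiles in the groups below 20%, and more in every group above. They gave 6.75 points against 3.05 for distant tiles at 20% to 30% (66 tiles). The widest gap was at 30% to 40%, 14.8 points against 3.45, but over 24 tiles. From 40% up, other FoxA tiles gave 2.15 to 8.66 points. These group values were not tested.

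**Figure D3:**
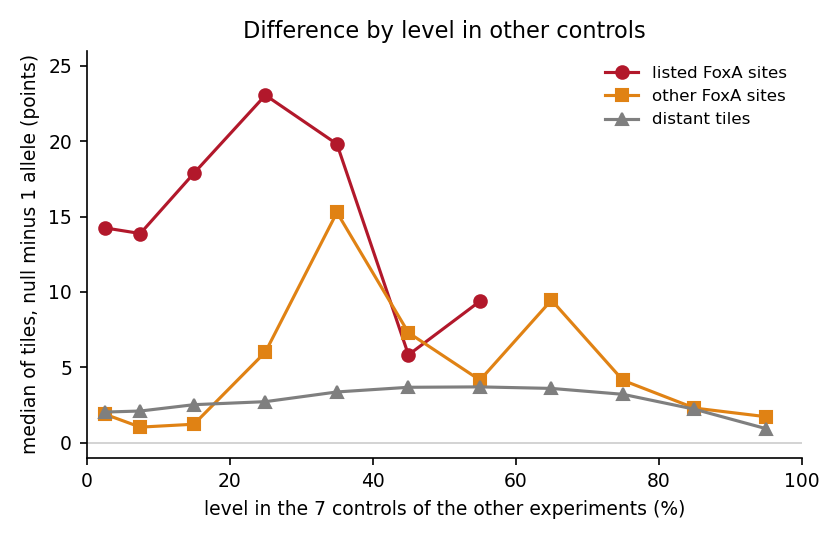
Median over tiles of null mean minus single-allele mean (points) against the tiles' level in the 7 controls of the other experiments (percent), for listed, other FoxA and distant tiles, in groups of 8 tiles or more. Listed tiles lie highest from 0% to 40%, with 23.1 points at 20% to 30%, and distant tiles stay at or below 3.71 points.

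The difference was centred on the sites and faded within about 1 kb. Tiles whose centre lay within 50 bp of a listed site's centre differed by 16.4 points (30 tiles), those from 50 to 150 bp by 15.4 points (75 tiles) and those from 150 to 300 bp by 14.0 points (80 tiles). Beyond the site's own edge the difference dropped to 8.88 points at 300 to 500 bp (112 tiles) and 4.07 points at 500 to 1000 bp (362 tiles). Less distant tiles of the same level, the sequence from centre outward was 13.5, 12.4, 11.2, 6.38 and 1.78 points, then 1.27 at 1000 to 1500 bp and 0.508 at 1500 to 2000 bp. Around other FoxA sites more than 2000 bp from a listed one, the difference lay between 1.90 and 2.88 points at every distance, or between -0.344 and 0.563 points less distant tiles.

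**Figure D4:**
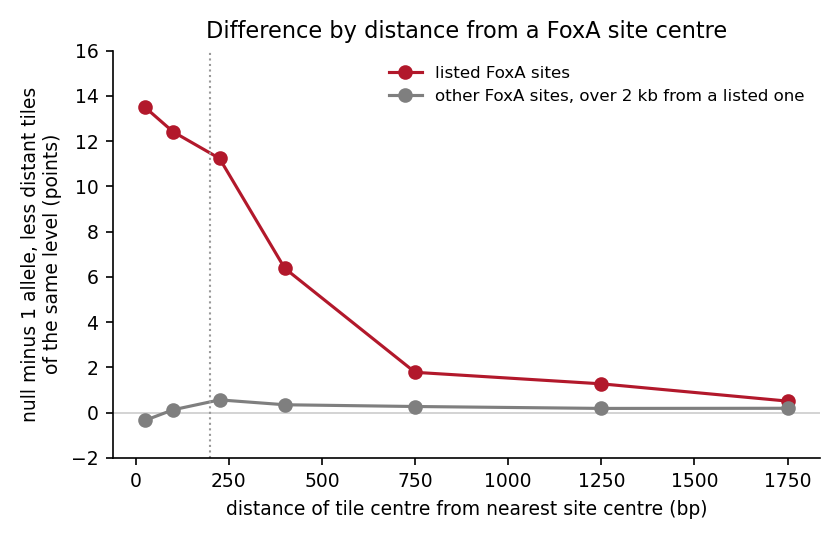
Null minus single-allele level less distant tiles of the same level (points, mean over tiles) against distance of the tile from the nearest site centre (bp, bin midpoints); the dotted line marks the edge of a 400 bp site. The line for listed sites falls from 13.5 points at the centre to 0.508 points in the outermost bin, and the line for other sites stays near 0.

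limma's moderated test, with the spread taken from all 27 RRBS libraries and Benjamini-Hochberg adjustment at 0.05 over all tiles, called 24 of 107 listed tiles higher in the nulls (22.4%) and none lower. Over all tiles it called 28372 higher (7.49%) and 361 lower (0.0953%), and over other FoxA tiles 397 higher and 13 lower of 3668. At an unadjusted p under 0.05 there were 45 listed tiles (42.1%), against 21.3% of all tiles. The 24 tiles lay in 20 regions and differed by 13.5 to 56.4 points. Their median level was 9.20% with a single allele and 41.1% in the nulls, and at 20 of them the single-allele mean lay below 20%. Of the 24, 18 differed by at least 20 points; over all tiles, 0.333% were called higher with such a difference and 0.0349% lower. With the 8-week null alone, a choice made after seeing the data, limma called 14 listed tiles higher and 0 lower, against 6.5% and 0.329% of all tiles. With the difference taken less the distant median of the same level, limma called 5 listed tiles higher and 0 lower, against 320 of all tiles higher (0.0845%) and 214 lower (0.0565%), and no other FoxA tile higher. Leaving out a single-allele sample leaves 1 library in that group, and fewer listed tiles and fewer of all tiles were then called higher. The mean difference at listed tiles was 15.6 points without sample 1 and 16.2 points without sample 2. With the spread of the 6 compared libraries alone no tile was called, and 37 listed tiles (34.6%) had an unadjusted p under 0.05, against 14.9% of all tiles.

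Among the 8 named listed tiles, chr9:70170101-70170200 had the widest difference. In order of age, the nulls were at 94.1%, 74.1%, 78.0% and 77.1%, against 17.5% and 31.3% in single-allele samples 1 and 2. All 4 nulls lay far above both, by 56.4 points on average (SE 11.1, limma adjusted p = 0.00521), a call lost less the distant median (adjusted p = 0.0574). The control was at 74.0% when 20 days old, the older controls were at 15.1%, 24.5% and 14.6%, and the double heterozygotes at 17.5% and 35.3%. The 20-day control thus lay below the null of its own age, at 94.1%, and just under the 8-week null, at 74.1%. The single-allele samples lay near the older controls. The adjacent upstream tile, also inside the site, averaged 20.7% in the nulls and 2.27% with a single allele and was not called (limma adjusted p = 0.0655). There the 8-week null, at 3.85%, lay below the 8-week control, at 7.69%. The adjacent downstream tile, which reaches past the site's edge, was at 97.1% in the nulls and 94.7% with a single allele.

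The tile at chr3:121171901-121172000 separated the genotypes most evenly. The nulls were at 63.2%, 59.5%, 59.3% and 53.7% in order of age, and single-allele samples 1 and 2 at 0% and 7.89%. The difference of 55.0 points (SE 2.94, limma adjusted p = 2.70e-09) also passed less the distant median (adjusted p = 3.72e-09). All 4 age series controls lay between 4.44% and 12.9% and the double heterozygotes at 3.85% and 10.5%, so that at every age the control lay near the single-allele samples and far below the nulls. Both neighbouring tiles in the site were called by limma as well, with 46.4% against 20.0% upstream and 32.1% against 6.67% downstream. The region chr3:121171801-121172100 averaged 45.8% in the nulls and 10.2% with a single allele, and its site had gone from 15.5% in WGBS controls to 67.0% in WGBS nulls.

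At chr12:77595001-77595100, covered by 2 FoxA sites, the nulls were at 56.4%, 30.0%, 36.8% and 52.8% in order of age and the single-allele samples at 12.0% and 0%. The groups did not overlap, and the difference of 38.0 points (SE 6.82, limma adjusted p = 0.00302) also passed less the distant median. At chr6:28523101-28523200 the single-allele samples differed widely, with 4.55% and 45.5%, below nulls of 50.0% to 83.9%. The mean difference there was 41.3 points (SE 9.32, limma adjusted p = 0.0116), and less the distant median it was no longer called (adjusted p = 0.137). The 8-week control at 34.6% lay between the single-allele samples.

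The 4 remaining tiles were chr4:117015501-117015600, chr9:83848701-83848800, chr1:129652501-129652600 and chr11:95014901-95015000. Their null means were 51.7%, 49.5%, 41.3% and 40.9% and their single-allele means 11.3%, 15.4%, 7.88% and 9.17%, all with limma adjusted p between 0.0132 and 0.0430. None of the 4 was called less the distant median (adjusted p between 0.152 and 0.325), and the first was not called on the logit scale either (adjusted p = 0.0528). Of all 23 named tiles, inside sites and distant, 8 passed less the distant median and 17 on the logit scale. The nulls spread widely at the first of them, with 71.9%, 25.0%, 34.8% and 75.0% in order of age, and at the third, from 17.9% at 8 weeks to 63.3% at 20 days. At the third tile the 8-week null was near the single-allele samples of 11.8% and 4.00%. Chosen after their values were seen, the 3 other listed tiles called less the distant median were chr15:96439101-96439200 (37.8% in nulls, 9.23% with a single allele), chr12:81006101-81006200 (29.0% and 1.52%) and chr5:125537601-125537700 (27.7% and 8.64%).

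**Figure D5:**
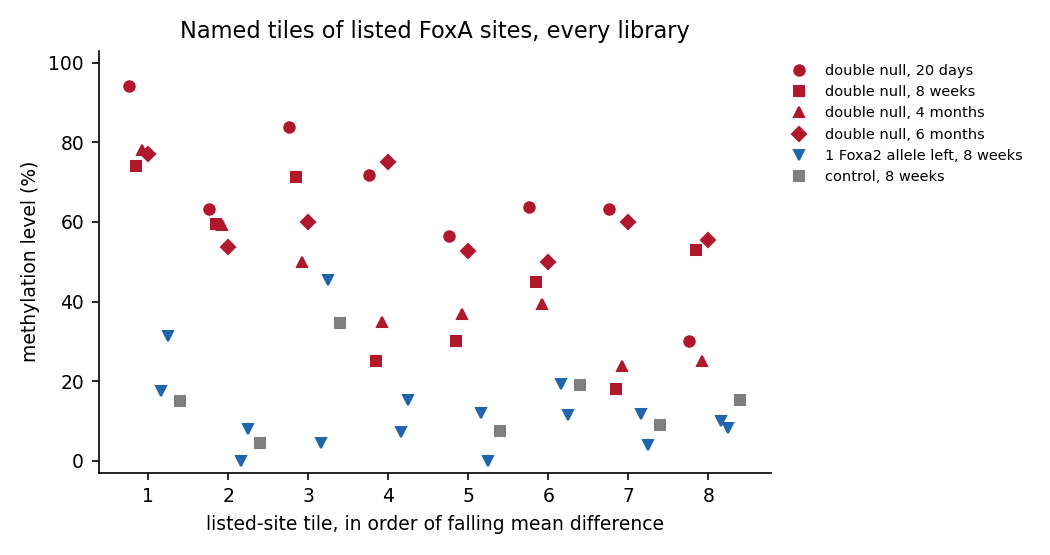
Methylation level (percent) in every null and single-allele library and in the 8-week control at the 8 named listed tiles, in order of falling mean difference (chromosomes 9, 3, 6, 4, 12, 9, 1 and 11); the fourth tile has no control value. At each tile the 4 nulls lie above both single-allele samples, with the closest approach at the third tile, 50.0% against 45.5%.

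The 3 listed tiles with the most negative difference did not pass limma's test on the percent scale. At chr16:62873101-62873200 both single-allele samples were fully methylated at 100% and the nulls lay between 83.3% and 95.7%, a difference of -10.1 points (SE 5.20, adjusted p = 0.277). At chr1:135960601-135960700 the nulls ranged from 37.5% to 62.5% and the single-allele samples were at 66.7% and 52.9%, a difference of -9.43 points. At chr13:52865601-52865700 the nulls ranged from 33.3% to 64.3% and the single-allele samples were at 64.6% and 43.6%, a difference of -6.61 points. The first of these was the 1 listed tile with all nulls below both single-allele samples.

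Outside the list, the single-allele mean lay near the 8-week control at 2 of the 3 highest other FoxA tiles. At chr15:100511401-100511500 the nulls were at 50.0%, 71.4%, 33.3% and 61.1% in order of age and the single-allele samples at 0% and 11.1% (48.4 points, limma adjusted p = 0.00970), with the 8-week control at 13.6%. Its site had WGBS levels of 49.9% in controls and 58.6% in nulls, a gain under the list's threshold. At chr8:111411401-111411500 the means were 61.2% and 14.9%, with the control at 13.3%. At chr4:137487401-137487500 they were 75.4% and 37.8%, and there the 8-week control, at 72.2%, lay with the nulls. Among the tiles lower in the nulls, chr11:53520801-53520900 averaged 19.7% ± 6.64 (SD, n = 2) in the single-allele samples and between 0.350% and 4.36% in the nulls (-17.8 points, limma adjusted p = 4.19e-06). Age series controls and double heterozygotes there lay between 0% and 1.65%, so the single-allele samples stood apart from every group. The other 2 lower tiles, chr19:44073901-44074000 and chr10:62836401-62836500, had 7.67% and 3.01% in the nulls and 26.3% and 20.4% with a single allele.

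Single tiles far from any FoxA site reached differences as large. At chr6:38852501-38852600, the nulls were at 96.6% to 98.3% and single-allele samples 1 and 2 at 0% and 54.7% (70.2 points, limma adjusted p = 1.05e-04), with age series controls at 97.1% to 100% and double heterozygotes at 0% and 2.56%. The nulls and all 4 age series controls were high there, and 3 of the 4 single-allele and heterozygote samples were near 0. At chr2:180195801-180195900 and chr10:19852901-19853000, by contrast, the nulls averaged 87.9% and 75.3%, the single-allele samples 21.1% and 10.3%, and the age series controls lay at or below 16.7% and 11.8%. Among the lower ones, chr6:48518601-48518700 had 5.10% in the nulls, 62.1% in the single-allele samples, and 71.8% and 84.1% in the double heterozygotes. The age series controls there, at 0% to 13.6%, lay with the nulls. At chr2:156325001-156325100 the means were 24.5% and 85.0%, the double heterozygotes were at 100% and 52.8%, and the age series controls ranged from 8.00% to 60.9%.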

How the data were processed

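Methylation was deposited by the authors as a fraction between 0 and 1 per RRBS tile and per WGBS site, and was multiplied by 100 here. Per the submitters' processing notes, the tools were Trim Galore 0.3.3 and BSMAP 2.74 and the build mm9; the step from reads to tiles is not given in the sources used. Without coverage in the table, depth is unknown and no interval was computed; libraries had levels at 445198 to 594593 tiles. The 8 columns of authors' averages were not used. HNF6 lists came from MACS 2.1.1, per the file headers; their fold enrichment was deposited by the authors, and only peak positions were used, with 1 bp of overlap.

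Libraries' class means entered two-sided exact permutation tests (scipy 1.17.1, Python 3.11.15). For single tiles, limma 3.58.1 (R 4.3.3) was fitted to percent values with a trended variance. The spread came from all 27 RRBS libraries, which assumes a like spread in all groups. These libraries also include FoxA triple nulls after Cre induction and adult double nulls after partial hepatectomy. The fit was tested on simulated data. Levels in the 7 controls of the other experiments set the level groups. Named tiles were the 8 listed tiles called higher with all nulls above both single-allele samples and the largest difference, 1 per region, the 3 most negative listed tiles, and 3 each way among called other FoxA and distant tiles; tiles of chromosome 18 were not named. Members, classes and tests were chosen with earlier results of these data known. Alternatives included the logit scale (levels held between 1% and 99%), other reference tiles, level filters and leaving out each library.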

Additional observations from a re-analysis of the deposited data

Results flagged for a closer look

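Of 35 groups of 4 libraries tested for an outlying sample at the named tiles, 1 was marked, where chance marks about 1 in 20 such groups. At the distant tile chr8:40013301-40013400, the most negative of the distant tiles, the 8-week double null was at 10.0% and the other 3 nulls were listed at 0%. The single-allele samples were at 77.1% and 63.6% there, a difference of -67.9 points (limma adjusted p = 0.0422). The age series controls were at 0%, 89.4%, 79.1% and 0% in order of age, and the double heterozygotes at 71.7% and 0%, so levels within single groups spanned nearly the whole scale.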

How the results depend on the processing

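The difference at listed tiles was 14.0 to 18.0 points, or 11.6 to 15.6 relative to distant tiles, without each library in turn; the median over tiles gave 23.6 and 20.2. None of these, nor the other settings tried, turned its direction. The value for other FoxA tiles relative to distant tiles, near 0, was -0.0322 against level-matched tiles, -0.738 for the median and -0.425 for the 8-week null alone, and -0.769 to 0.453 without each library.

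Counts of calls moved most. For all tiles higher in nulls (28372), limma called 1260 with a difference of at least 20 points, 571 at a mean level of 5% to 95%, 128 at a control level of 10% to 90%, 320 less the distant median, 0 with the spread of the 2 groups alone (56555 tiles at an unadjusted p under 0.05), and 5979 to 33233 without each library, the lowest 2 without a single-allele sample. For lower tiles (361) the same settings gave 132, 29, 3, 214, 0 and 253 to 457; the logit scale gave 899 and the 8-week null alone, chosen after seeing the data, 1247. For listed tiles higher in nulls (24), the level filters gave 8 and 4, the distant median 5, the spread of the 2 groups 0, the 8-week null alone 14, and leaving out each library 6 to 24; on the logit scale 1 listed tile was lower, chr16:62873101-62873200. The cause was not tested.

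Against double heterozygotes (25 higher, 21 lower), a minimum of 20 points gave 12 and 11, and leaving out each library gave 141 to 546 and 92 to 698. With the sample number as a replicate block the counts were 41 and 36. Same-numbered libraries deviated together with r = -0.0039 across 433351 tiles. That value rests on 1 difference between samples per genotype, so it cannot show whether they share more than a number. The labels do not say. Of 138 values of named tiles without 1 library, 1 turned: chr13:52865601-52865700, at -17.1 to 3.88 points, was above 0 without single-allele sample 1. Coverage minimums could not be run, as the table gives no coverage.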
